A study of Mus musculus with 12 samples.

Results

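The glucose transporter Slc2a1 and 9 glycolytic enzymes (Hk1, Hk2, Pfkl, Pfkp, Aldoa, Gapdh, Pgk1, Pkm and Ldha) were followed in H9c2 cells treated with the anthracycline doxorubicin (DOX), alone or together with a cardioprotective agent. The genes were taken by symbol, as members of the pathway, with earlier results of these data known. The 10 symbols matched 11 of the 54345 genes in the expression table, because the symbol Aldoa is carried by both ENSMUSG00000030695 and ENSMUSG00000114515. H9c2 is a cell line that the study describes as rat cardiomyoblasts, whereas the sample labels give mouse as the organism and myoblast as the cell type, and the genes carry mouse identifiers. The effect of the species on how many reads were placed was not tested. The study asked whether magnesium hexacyanoferrate nanocatalysts (MgHCF), particles made to bind ferrous iron, and dexrazoxane (DXZ), a clinical cardioprotectant, alter the response to DOX. Wild-type cells stayed untreated (Unt), or received DOX (DOX), DOX with DXZ (D_DXZ) or DOX with MgHCF (D_MgHCF) for 6 h, with 3 libraries in each of the 4 groups. No group received DXZ or MgHCF without DOX, and the doses in the sequenced cells are not given in the sources used here. Whether the libraries of a group came from separate cultures is not stated, so the p-values measure only the spread between these libraries.

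Poly(A) RNA was measured as FPKM, a read count divided by the length of the gene and by a library-wide factor. The libraries held between 16626514 and 19365119 reads on genes. The library scaling inside the deposited FPKM equalled a median-ratio factor, and the summed FPKM ranged from 216899 to 230292 in Unt and from 498756 to 627769 in DOX. Levels after DOX therefore depend on the scaling, which is shown beside the results. Most defining markers of muscle were near 0, which goes against a differentiated muscle identity at the RNA level. Of 8 skeletal myoblast markers, 2 reached 1 FPKM in any library, and Myog, a late myogenic regulator, stayed at or below 0.051 FPKM. The myoblast markers Myod1, Myf5 and Pax7 reached at most 0.126, 0.0782 and 0.0812 FPKM. The cardiac transcription factor Gata4 had a mean of 10.3 FPKM in Unt, whereas the cardiac myosin genes Myh6 and Myh7 reached at most 0.136 and 0.028 FPKM. Gata4 had a mean of 3.35 FPKM in DOX and 19.2 in D_MgHCF, and the sum of 7 cardiac markers lay between 10.8 and 11.9 FPKM in Unt, 3.45 and 6.10 in DOX, 3.45 and 4.80 in D_DXZ, and 16.0 and 26.7 in D_MgHCF. Most of this sum came from Gata4, so it does not show the markers moving together. Tnnt2 moved the other way, with means of 0.133 FPKM in Unt, 0.903 in DOX and 0.424 in D_MgHCF. The summed level of 5 fibroblast markers, nearly all from the collagen genes Col1a1 and Col1a2, lay between 45.1 and 51.1 FPKM in Unt, and between 97.4 and 122 in DOX. For D_DXZ it lay between 76.7 and 103, and for D_MgHCF between 22.0 and 39.6. The 2 collagen genes differed in D_MgHCF, where Col1a2 had a mean of 4.54 FPKM against 27.8 in Unt. Col1a1 had 23.7 against 20.0, with overlapping libraries. Pdgfra was lower in DOX than in Unt (0.352 and 0.718 FPKM), and the fibroblast markers Thy1 and Dcn reached at most 0.0477 and 0.147 FPKM. Among markers of other cells, the summed level of 4 epithelial markers was 0.189 to 0.233 FPKM in DOX and 0.425 to 1.63 FPKM in D_MgHCF, with all 4 called higher in that comparison. There 31.4% of all genes were called higher, and no epithelial marker reached 1 FPKM in any library. The count called higher was also 4 under TPM scaling, but 2 with voom and 0 under quantile normalization. The summed level of 3 endothelial markers was 0.0483 to 0.200 FPKM in DOX and 0.237 to 0.989 FPKM in D_MgHCF, and the summed level of 3 leukocyte markers was 1.04 to 1.22 FPKM in Unt and 3.01 to 3.77 FPKM in DOX, nearly all from Cd68, while Ptprc reached at most 0.0129 FPKM. The part of these cells in the results was not tested.

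Glycolysis turns glucose into pyruvate in the cytosol and yields ATP without oxygen. Glucose enters through GLUT1, encoded by Slc2a1, and is trapped by hexokinase as glucose 6-phosphate. Phosphofructokinase commits the sugar to the pathway, aldolase splits it, and the lower enzymes from Gapdh to Pkm recover ATP, after which Ldha reduces pyruvate to lactate. Hypoxia-inducible factor and MYC are known regulators of many of these genes and bind DNA motifs that share the letters ACGTG. Cardiac muscle draws most of its ATP from fatty acids, while proliferating cells rely more on glucose.

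Promoter stretches are shown for Slc2a1 and Hk2, which fell together after DOX, and for Pgk1, which rose. Each runs from 250 to 31 bases before the RefSeq start on build GRCm38.p6, 5′ to 3′ on the strand of the gene. Capitals mark ACGTG or its reverse complement CACGT.
Slc2a1 (chr4:119108495-119108714, plus strand): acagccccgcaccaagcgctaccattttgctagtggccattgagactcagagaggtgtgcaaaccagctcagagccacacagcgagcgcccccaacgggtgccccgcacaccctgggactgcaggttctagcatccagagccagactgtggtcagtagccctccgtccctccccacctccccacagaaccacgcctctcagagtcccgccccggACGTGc
Hk2 (chr6:82774485-82774704, minus strand): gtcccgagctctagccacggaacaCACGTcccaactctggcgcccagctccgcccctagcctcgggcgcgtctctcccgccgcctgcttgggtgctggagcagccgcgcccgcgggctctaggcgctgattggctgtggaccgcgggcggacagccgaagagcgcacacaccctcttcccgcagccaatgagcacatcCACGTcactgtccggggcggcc
Pgk1 (chrX:106186850-106187069, plus strand): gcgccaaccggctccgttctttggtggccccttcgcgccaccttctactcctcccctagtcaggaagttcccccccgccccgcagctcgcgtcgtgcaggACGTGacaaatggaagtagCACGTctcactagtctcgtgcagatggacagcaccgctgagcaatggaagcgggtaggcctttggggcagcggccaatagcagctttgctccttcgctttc
The motif occurred once in the Slc2a1 window, and both Hk2 and Pgk1 held 2 matches. All 10 symbols were matched to RefSeq promoters, with 15 windows in all, of which 7 held ACGTG on either strand, and 6 of the 10 symbols had such a window. Of the 7, 2 were overlapping Aldoa windows that share a single match. Of 32851 RefSeq windows of the same 220 bases, 14.4% held it. The palindrome CACGTG, which contains ACGTG on both strands, was found in 1 of the 15 windows, a Ldha start, and in 5.01% of all windows. Matched letters describe the mouse reference, not bound sites, and genes that moved in opposite directions both held them.

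Levels spanned more than 2 orders of magnitude in untreated cells. Pkm, the pyruvate kinase of most tissues, was highest at 387 ± 26.9 FPKM (SD, n = 3), followed by Ldha at 329 ± 17.4 and Pgk1 at 320.0 ± 7.11 FPKM, whose libraries overlapped. Aldoa stood at 214 ± 12.0 FPKM. The upper steps were lower, with Pfkl at 25.8 ± 1.16 and Slc2a1 at 24.5 ± 0.241 FPKM overlapping each other, then Hk1 at 16.4 ± 1.12, and Pfkp at 13.9 ± 0.522 and Hk2 at 13.5 ± 0.453 FPKM, which also overlapped. The order of the first 4 genes was the same in DOX and D_DXZ, where the libraries of Ldha and Pgk1 again overlapped. In D_DXZ the libraries of Pkm and Ldha overlapped as well. Slc2a1 went from rank 6 of 11 in Unt to rank 9 in DOX and D_DXZ, and Hk2 from rank 9 to rank 10. The Gapdh row, which was scattered in DOX and D_DXZ, went from rank 11 in Unt to rank 6 there. Without that row Hk2 kept its rank, while Slc2a1 still fell below Hk1 and Pfkp. In D_MgHCF the libraries of Pgk1 and Aldoa overlapped, as did those of Aldoa and Ldha, and Ldha had rank 4. The 11 genes together took 0.602% ± 0.0127 of the summed FPKM in Unt, 1.03% ± 0.0246 in DOX, 0.939% ± 0.0240 in D_DXZ and 0.501% ± 0.0491 in D_MgHCF (SD, n = 3 each).

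**Figure D1:**
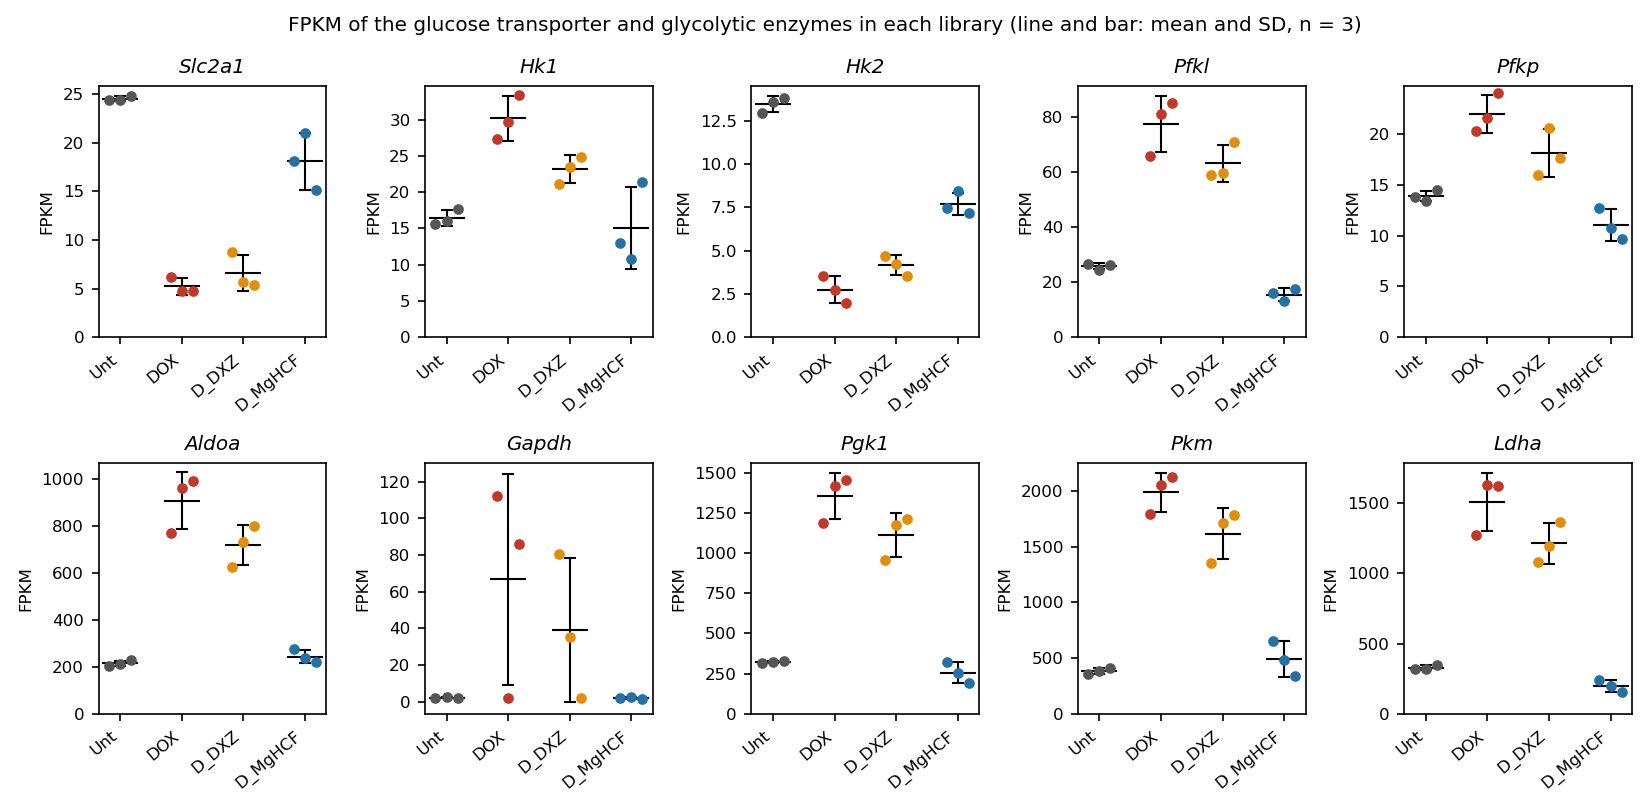
FPKM of the 10 named genes in each of the 12 libraries, in 4 groups of 3 libraries, with linear axes, where the horizontal line and the bar give the mean and the SD. Slc2a1 and Hk2 were high in Unt and low in DOX and D_DXZ, Aldoa, Pgk1, Pkm and Ldha showed the opposite pattern, and Gapdh was scattered within DOX and D_DXZ.

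DOX against Unt asked how the pathway responded to the drug alone. The transporter Slc2a1 and hexokinase Hk2 fell, and 7 genes of the set rose, namely Hk1, Pfkl, Pfkp, Aldoa, Pgk1, Pkm and Ldha. Gapdh and the second Aldoa gene did not pass the test, which was limma on log2(FPKM + 1) with Benjamini-Hochberg adjusted p under 0.05 over 25044 genes. Of all genes tested, 18.6% were called higher and 19.9% lower. Among the 4566 genes with a mean FPKM of at least 10, 65.2% were called higher and 15.0% lower, so rises were common among abundant genes as a whole. The median log2 change of the 11 genes was 1.54, against 0 over all genes tested. Over the abundant genes, to which 9 of the 11 belong, it was 0.93. In bulk RNA, fewer cells of a type and less RNA per cell cannot be told apart.

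Slc2a1 (chromosome 4, 119108711 to 119137983) was among the most depleted genes of the set. Its FPKM was 24.4, 24.4 and 24.8 in Unt and 6.20, 4.74 and 4.73 in DOX. In D_DXZ it was 8.71, 5.66 and 5.34, and in D_MgHCF 18.1, 20.96 and 15.1. No DOX or D_DXZ library reached the lowest D_MgHCF library, and no D_MgHCF library reached Unt. The mean was 4.70-fold lower in DOX than in Unt, a log2 change of -2.05 ± 0.17 (SE, adjusted p = 1.40e-05). This placed Slc2a1 at percentile 1.99 of the 4566 abundant genes by log2 change. The value rested on 192 to 2151 reads per library.

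Hk2, the inducible hexokinase of muscle (chromosome 6, 82725025 to 82774454), followed the same pattern. Its FPKM was 13.0, 13.6 and 13.8 in Unt, 3.52, 2.70 and 1.98 in DOX, 4.71, 4.21 and 3.54 in D_DXZ and 7.48, 8.43 and 7.19 in D_MgHCF. All 4 groups were apart from each other, although the lowest D_DXZ library exceeded the highest DOX library by little. The DOX mean was 4.92-fold lower than that of Unt, a log2 change of -1.97 ± 0.15 (adjusted p = 1.17e-05), at percentile 2.28 when ranked against the abundant genes, to which Hk2 itself does not belong (mean 7.01 FPKM over all libraries). Hk1, the constitutive isoform (chromosome 10, 62268855 to 62379908), moved the other way on the deposited scale. It had 15.6, 16.1 and 17.7 FPKM in Unt, 27.4, 29.7 and 33.4 in DOX, 21.1, 23.5 and 24.9 in D_DXZ, and 13.0, 10.8 and 21.4 in D_MgHCF, where the libraries spread widely. Its log2 change in DOX was 0.83 ± 0.20 (adjusted p = 0.00595), at percentile 46.7 of the abundant genes, and the sign turned under TPM scaling (-0.47, not called).

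Both phosphofructokinase genes of the set rose on the deposited scale, and Pfkl, the liver-type subunit, moved further than Pfkp, the platelet-type subunit. Pfkl (chromosome 10, 77986947 to 78010083) had 26.5, 24.5 and 26.4 FPKM in Unt, 65.8, 81.1 and 85.1 in DOX, 59.1, 59.6 and 70.9 in D_DXZ and 15.9, 13.1 and 17.5 in D_MgHCF. D_MgHCF was thus below every other group. The DOX mean was 3.0-fold that of Unt (log2 change 1.54 ± 0.13, adjusted p = 1.40e-05). Pfkp (chromosome 13, 6579768 to 6648777) had 13.8, 13.5 and 14.5 FPKM in Unt, 20.4, 21.6 and 24.0 in DOX, 16.0, 20.7 and 17.7 in D_DXZ and 12.8, 10.8 and 9.70 in D_MgHCF. Its rise of 0.62 ± 0.12 in DOX (adjusted p = 0.0015) became a call in the lower direction under TPM scaling (-0.67). Pfkp overlaps Pitrm1 on the opposite strand, which reached 107 FPKM, and reads of the shared part could not be assigned without strand.

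Aldolase and the enzymes below it gave the largest rises of the set among called genes. Aldoa, which cleaves fructose 1,6-bisphosphate (chromosome 7, 126795234 to 126800751), had 203, 211 and 227 FPKM in Unt, 769.7, 961 and 993 in DOX, 625, 731 and 797 in D_DXZ and 275, 237 and 219 in D_MgHCF. Unt and D_MgHCF overlapped, and both lay far below DOX and D_DXZ. Pgk1, which makes the first ATP of the pathway (chromosome X, 106187100 to 106203699), had 313, 321 and 327 FPKM in Unt, 1189.7, 1417 and 1457 in DOX, 956, 1177 and 1211 in D_DXZ and 321, 252 and 193 in D_MgHCF. Pkm (chromosome 9, 59656368 to 59679375) had 359.9, 387 and 414 FPKM in Unt, 1789, 2049 and 2124 in DOX, 1356, 1710.4 and 1779.6 in D_DXZ and 655, 482 and 336 in D_MgHCF. The first D_MgHCF library was the highest of its group for all 3 of these genes. Ldha, the lactate dehydrogenase subunit that favours lactate (chromosome 7, 46841475 to 46855627), had 317, 319.99 and 349 FPKM in Unt, 1272, 1632 and 1621 in DOX, 1080.4, 1198 and 1368 in D_DXZ and 241, 198 and 157 in D_MgHCF. Here every D_MgHCF library was below every Unt library.

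In DOX the means were 5.14-fold (Pkm), 4.59-fold (Ldha), 4.25-fold (Aldoa) and 4.23-fold (Pgk1) those of Unt. The log2 changes were 2.36 ± 0.26 for Pkm (adjusted p = 4.62e-05), 2.19 ± 0.20 for Ldha (1.82e-05), 2.07 ± 0.16 for Aldoa (1.20e-05) and 2.07 ± 0.21 for Pgk1 (2.88e-05). By log2 change these genes stood at percentiles 97.6, 95.7, 93.1 and 93.0 of the abundant genes. The second Aldoa gene, ENSMUSG00000114515 (chromosome 7, 126800790 to 126809108, 799 bases), was low, with group means of 3.55 ± 0.590 FPKM in Unt, 2.40 ± 0.734 in DOX, 2.43 ± 0.239 in D_DXZ and 5.67 ± 1.39 in D_MgHCF. It rested on 16 to 141 reads and was not called in DOX against Unt (-0.44 ± 0.20, adjusted p = 0.126).

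Library scaling set the size and, for Hk1 and Pfkp, the sign of these changes. Rescaling the FPKM to equal totals (TPM) moved the median of the 11515 genes with a mean FPKM of at least 1 from 0.05 to -1.03 in DOX against Unt, and turned the calls over all genes from 4649 higher and 4973 lower to 1099 higher and 10034 lower. Under TPM, 4 genes of the set were called higher (Pkm, Ldha, Aldoa and Pgk1) and 4 lower (Slc2a1, Hk2, Pfkp and the second Aldoa gene). The small RNA gene Gm23935, of 57 bases, took 2.83% to 13.6% of the summed FPKM, and leaving it out of the totals gave the same 4 and 4. Slc2a1, Hk2, Pkm, Ldha, Aldoa, Pgk1 and Pfkl kept their direction under all 5 scalings, but Pfkl was not called under TPM (0.20), and the rise of Pgk1 shrank to 0.12 under quantile normalization and was not called. Relative to the median of genes with a mean FPKM of at least 1, Slc2a1 and Hk2 stood below it under all 5 scalings. Hk1, Pfkl, Pfkp, Aldoa, Pgk1, Pkm and Ldha stood above that median under all 5 scalings. This depended on the reference. Against the median of the abundant genes, Hk1 (-0.091) and Pfkp (-0.305) stood below as deposited. They also stood below it under TPM (-0.094 and -0.294) and under every other scaling except quantile normalization (0.152 and 0.103). Pgk1 stood below it only under quantile normalization (-0.070).

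**Figure D2:**
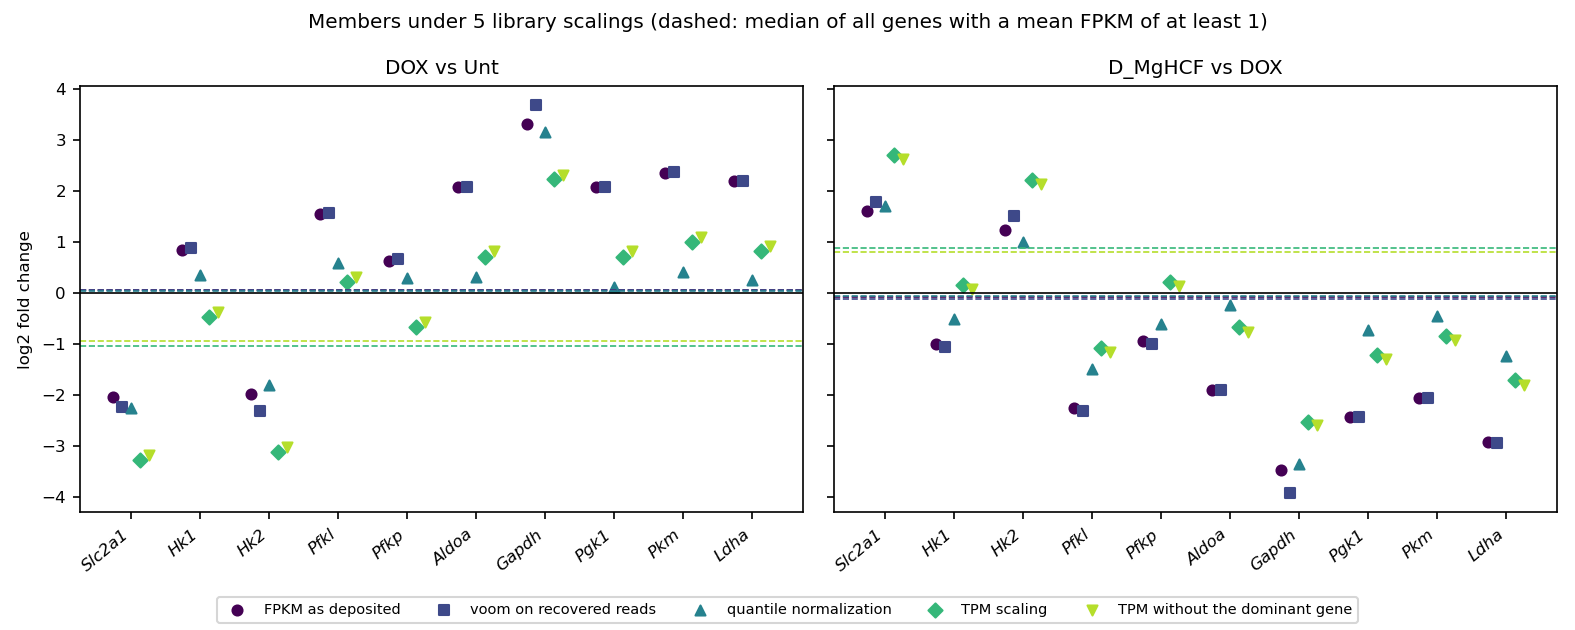
Log2 fold changes (vertical axis) of the 10 named genes under 5 library scalings for DOX against Unt and for D_MgHCF against DOX, with dashed lines at the median of the 11515 genes with a mean FPKM of at least 1 under each scaling. Hk1 and Pfkp cross 0 between the scalings, while Slc2a1 and Hk2 stay on the same side of it in each comparison.

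Gapdh, glyceraldehyde 3-phosphate dehydrogenase and a common reference gene (chromosome 6, 125161715 to 125166467), could not be separated from near-identical copies elsewhere in the mouse genome. Its FPKM was 2.02, 2.40 and 2.13 in Unt, 112, 2.15 and 85.8 in DOX, 80.4, 35.3 and 1.74 in D_DXZ and 1.76, 2.38 and 1.47 in D_MgHCF. Within DOX and D_DXZ the libraries split into high and low values, and the log2 change in DOX was 3.30 ± 1.40 (adjusted p = 0.0938). Without the second DOX library it was called, at 4.96. Gapdh had 147 near-identical copies in the mouse annotation (at least 95% identity over at least 150 bases), which held from 59.2% to 99.0% of the reads summed over the gene and its copies. The origin of these reads was not tested, and how reads that match several rows were counted is not given in the sources used here. Gapdh also overlaps Iffo1 on the opposite strand, which reached 18.6 FPKM, while the Gapdh row was at 1.47 to 2.40 FPKM in 8 of the 12 libraries. The largest was the processed pseudogene Gm13394 (chromosome 2, 28933610 to 28934609), 99.9% identical over 1000 aligned bases with 1 mismatch, A424C, counted from the ATG that opens the longest reading frame of the Gapdh-201 transcript. The stretch from base 394 to 454 is shown because it holds the only letter that separates them over the aligned bases, in capitals.
Gapdh: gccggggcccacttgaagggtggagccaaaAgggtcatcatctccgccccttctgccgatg
Gm13394: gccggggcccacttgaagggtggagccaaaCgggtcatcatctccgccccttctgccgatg
Gm13394 had 129.6, 152 and 152 FPKM in Unt, 564, 701 and 677 in DOX, 446, 578 and 610.1 in D_DXZ and 222, 177 and 147 in D_MgHCF. In DOX against Unt and in D_MgHCF against DOX, Gm13394 thus moved in the same direction as Aldoa and Pgk1, without the split seen in the Gapdh row. In D_MgHCF against Unt the log2 change was 0.31 for Gm13394 and -0.36 for Pgk1, neither of them called. With the reads of Gapdh and its copies summed, a choice made after seeing the data, the log2 change was 2.42 ± 0.18 in DOX against Unt (adjusted p = 1.17e-05) and -2.04 ± 0.18 in D_MgHCF against DOX (adjusted p = 1.38e-05). Copies of the other genes of the set took at most 1.36% of their summed reads.

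**Figure D3:**
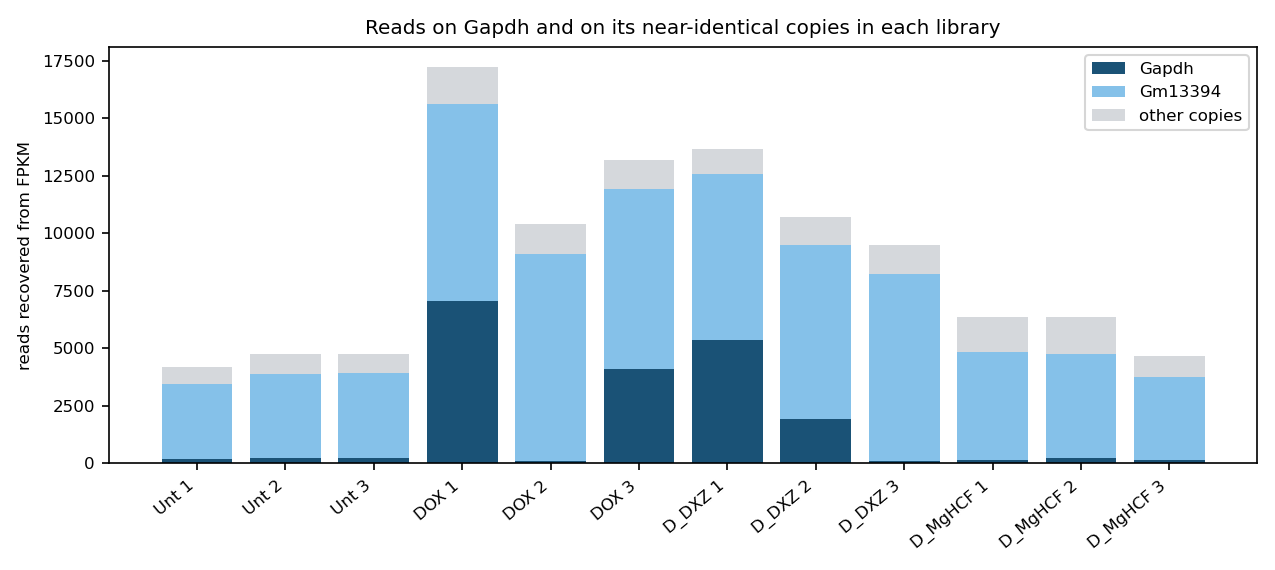
Reads recovered from the FPKM on Gapdh, on its copy Gm13394 and on the other copies, stacked for each of the 12 libraries. Gapdh itself ranged from 96 to 7040 reads, while Gm13394 held 3260 to 8992 reads.

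D_MgHCF against DOX asked how the addition of MgHCF changed the DOX response, and it shares the DOX libraries with the comparison above. Slc2a1 and Hk2 were higher, together with the second Aldoa gene, and 7 genes were lower, namely Hk1, Pfkl, Pfkp, Aldoa, Pgk1, Pkm and Ldha. Gapdh was not called in its own row (-3.46 ± 1.40, adjusted p = 0.0609). Of all genes tested, 31.4% were called higher and 20.1% lower, and of the abundant genes 15.5% and 67.3%. The median log2 change was -1.89 for the set, 0.07 for all genes tested and -1.01 for the abundant genes. Slc2a1 was 3.46-fold that of DOX (1.61 ± 0.17, adjusted p = 3.55e-05), and Hk2 was 2.82-fold (1.24 ± 0.15, adjusted p = 7.10e-05). Ldha was 7.59-fold lower in D_MgHCF (-2.93 ± 0.20, adjusted p = 3.92e-06), at percentile 0.810 of the abundant genes. Pgk1 was 5.31-fold lower (-2.43 ± 0.21), Pfkl 5.0-fold (-2.25 ± 0.13), Pkm 4.05-fold (-2.06 ± 0.26) and Aldoa 3.73-fold (-1.89 ± 0.16), with adjusted p from 2.51e-06 to 9.11e-05. The lower values of Hk1 (-1.005 ± 0.20) and Pfkp (-0.93 ± 0.12) became small positive values under TPM scaling, 0.16 and 0.21, and were not called there. The calls over all genes turned from 7863 higher and 5027 lower to 13331 and 1679 under TPM.

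**Figure D4:**
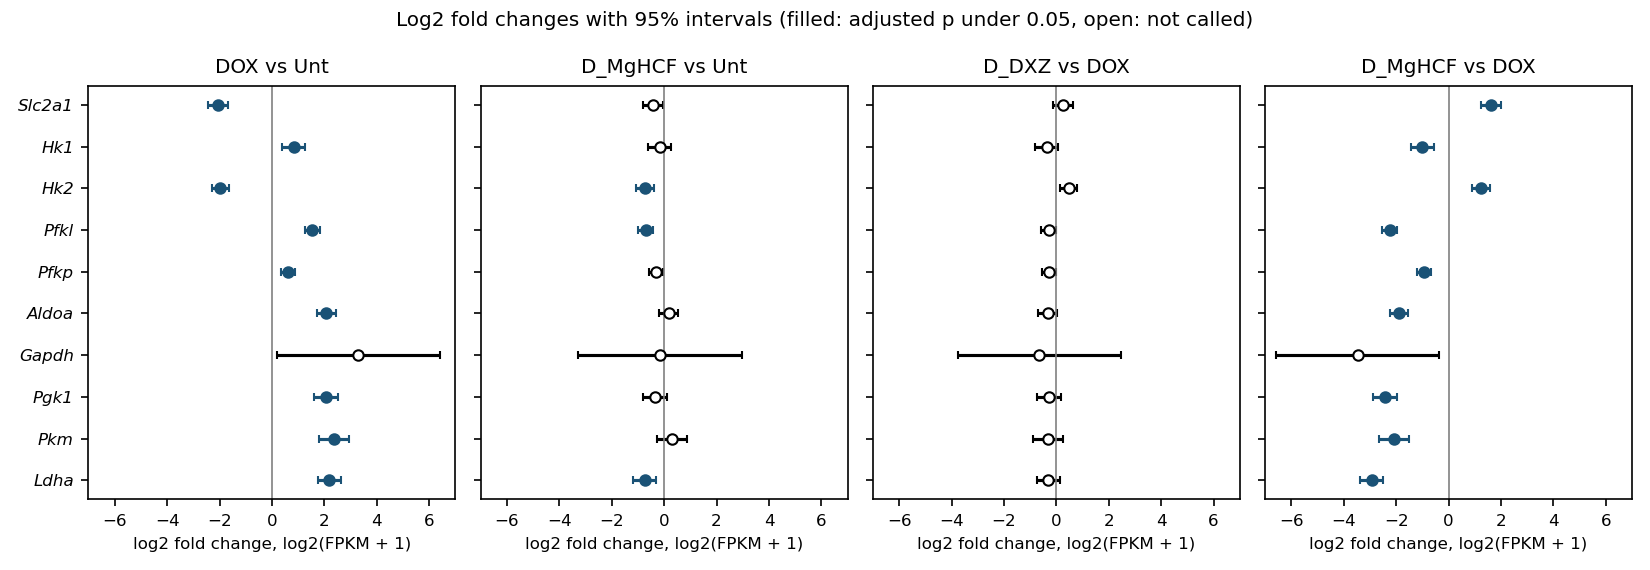
Log2 fold changes on the log2(FPKM + 1) scale with 95% intervals for the 10 named genes in 4 comparisons, with filled points for adjusted p under 0.05. In DOX against Unt and in D_MgHCF against DOX 9 of the 10 points are filled, in D_MgHCF against Unt 3 and in D_DXZ against DOX none.

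D_MgHCF against Unt asked how far cells with both agents stood from untreated cells. Pfkl, Ldha and Hk2 were lower and no gene of the set was called higher, while 8 were not called. In this comparison 24.3% of all genes were called higher and 15.7% lower, and of the abundant genes 22.9% and 29.3%. Pfkl was 1.67-fold lower (-0.71 ± 0.13, adjusted p = 0.0019), Ldha 1.65-fold (-0.74 ± 0.20, adjusted p = 0.0143) and Hk2 1.75-fold (-0.73 ± 0.15, adjusted p = 0.00345). The Ldha call ended without the third Unt library (-0.70) and in a fit of the 2 groups alone. For genes that were not called, the 95% intervals of the log2 change ran from -0.82 to -0.05 for Slc2a1, from -0.28 to 0.87 for Pkm, from -0.18 to 0.54 for Aldoa, from -0.82 to 0.10 for Pgk1 and from -0.61 to 0.27 for Hk1. Hk1 rested on the third D_MgHCF library, without which it was called lower (-0.44). Under TPM, Pgk1 (-0.50) and Pfkp (-0.46) were called lower too. Over all genes, 6096 were called higher and 3941 lower, against 4252 and 4627 under quantile normalization. Every Slc2a1 library of D_MgHCF lay below every Unt library, although the test did not pass (-0.43 ± 0.17, adjusted p = 0.0691). It was called lower under quantile normalization (-0.55) and with voom (-0.45), with adjusted p from 0.04 to 0.0692 over the 5 scalings.

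D_DXZ against DOX gave no call in the set, nor at any other gene (0% called), with limma at an adjusted p under 0.05. At an unadjusted p under 0.05 there were 2388 of 25044 genes with limma and 2049 with voom on the recovered reads, which also gave 0 adjusted calls. With no filter, 3 of 54345 genes were called. In the set, Hk2 had a log2 change of 0.48 (SE 0.15, unadjusted p = 0.00895, adjusted p = 0.378) and Pfkp of -0.27 (SE 0.12, unadjusted p = 0.0435, adjusted p = 0.509). All 3 D_DXZ libraries of Hk2 lay above all 3 DOX libraries, and for Pkm and Hk1 all 3 lay below, while the groups overlapped for the 8 other genes. Over all genes tested the libraries of these groups were apart for 16.3%, and over the abundant genes for 26.0%, so 3 of 11 was close to the background. The 95% intervals of the log2 change ran from 0.15 to 0.81 for Hk2, from -0.12 to 0.65 for Slc2a1, from -0.75 to 0.13 for Ldha, from -0.74 to 0.18 for Pgk1, from -0.88 to 0.27 for Pkm and from -0.70 to 0.02 for Aldoa. Against Unt, D_DXZ had 6 genes of the set higher and 2 lower, with 15.9% and 18.0% of all genes called and 59.4% and 15.3% of the abundant genes. Pkm (2.05 ± 0.26), Ldha (1.88 ± 0.20), Pgk1 (1.79 ± 0.21), Aldoa (1.74 ± 0.16), Pfkl (1.26 ± 0.13) and Pfkp (0.35 ± 0.12) were higher, and Slc2a1 (-1.78 ± 0.17) and Hk2 (-1.49 ± 0.15) lower, with adjusted p from 6.45e-05 to 0.0408. Pfkp was the weakest of these, lost its call in several alternatives and without the second D_DXZ library (0.26), and turned to -0.78, called lower, under TPM scaling. There 4 genes of the set were higher and 5 lower, and the calls over all genes turned from 3979 higher and 4515 lower to 917 and 9910.

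D_MgHCF against D_DXZ compared the cardioprotective agents directly. Slc2a1, Hk2 and the second Aldoa gene were higher and Hk1, Pfkl, Pfkp, Aldoa, Pgk1, Pkm and Ldha lower, with 3 genes higher and 7 lower, where 29.4% and 19.0% of all genes and 15.9% and 63.1% of the abundant genes were called. Slc2a1 was 2.75-fold (1.35 ± 0.17, adjusted p = 0.000132) and Hk2 1.85-fold (0.76 ± 0.15, adjusted p = 0.00184) the D_DXZ level. Ldha was 6.11-fold lower (-2.62 ± 0.20, adjusted p = 9.15e-06) and Pgk1 4.37-fold lower (-2.14 ± 0.21, adjusted p = 2.63e-05). Hk1 (-0.64 ± 0.20, adjusted p = 0.0215) was positive under TPM scaling (0.35, not called) and lost its call without the second D_MgHCF library (-0.44), and Pfkp (-0.66 ± 0.12, adjusted p = 0.00101) was then called higher (0.31), which gave 4 higher and 5 lower. The calls over all genes turned from 7358 higher and 4757 lower to 12648 and 1538.

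FPKM is per length, and the ratio of isoforms within a library does not depend on the library scaling. For hexokinase the Hk2 to Hk1 ratio was 0.833, 0.845 and 0.783 in Unt, 0.129, 0.0911 and 0.0594 in DOX, 0.223, 0.179 and 0.142 in D_DXZ and 0.574, 0.784 and 0.336 in D_MgHCF. Hk1 was thus the main isoform in each library, and the balance moved furthest from Hk2 in DOX. The log2 ratio fell by 3.21 ± 0.32 (SE) from Unt to DOX, was 1.01 ± 0.37 higher in D_DXZ than in DOX and 2.59 ± 0.48 higher in D_MgHCF than in DOX. No library overlapped in these 3 comparisons, and the exact two-sided permutation test gave p = 0.1, the smallest that 3 against 3 allow (adjusted 0.12 over 12 tests). D_MgHCF and Unt overlapped (-0.62 ± 0.36, exact p = 0.2, adjusted 0.218). For phosphofructokinase the Pfkp to Pfkl ratio was 0.522, 0.550 and 0.549 in Unt, 0.310, 0.266 and 0.282 in DOX, 0.271, 0.347 and 0.249 in D_DXZ and 0.802, 0.825 and 0.556 in D_MgHCF. By FPKM, Pfkl led Pfkp in each library, most in DOX and D_DXZ. This order rests on the gene lengths used, 13401 bases for Pfkp and 6675 for Pfkl. In reads, Pfkp exceeded Pfkl in each Unt library (4667, 4319 and 4743 against 4457, 3913 and 4306). It did so in each D_MgHCF library too (3590, 3675 and 3192 against 2229, 2219 and 2860). The log2 ratio fell by 0.92 ± 0.07 from Unt to DOX and was 1.33 ± 0.19 higher in D_MgHCF than in DOX (exact p = 0.1 each), while D_DXZ and DOX differed by 0.003 ± 0.16 (exact p = 1).

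**Figure D5:**
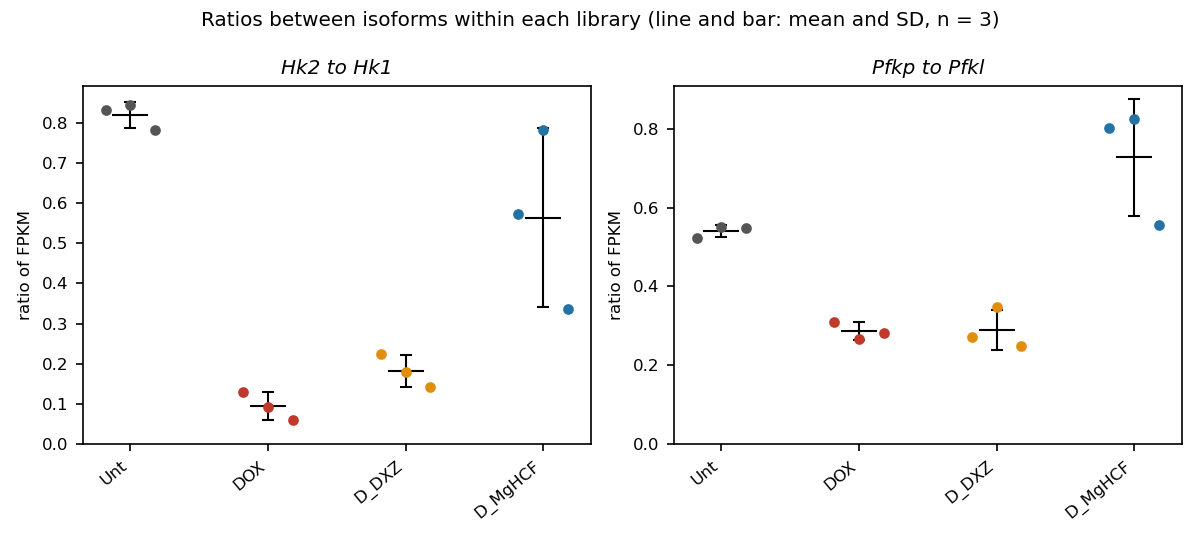
Ratios of FPKM between hexokinase isoforms (Hk2 to Hk1) and phosphofructokinase isoforms (Pfkp to Pfkl) in each library, with the mean and SD of 3 libraries per group. Both ratios are lowest in DOX and D_DXZ, and the D_MgHCF libraries scatter more than those of the other groups.

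The remaining glycolytic enzymes were counted from a list of 17 genes, of which 16 were tested. In DOX against Unt 9 were higher and 1 lower, with a median log2 change of 0.55 (5 higher and 2 lower under TPM). Of the 17 genes, 6 had a mean FPKM of at least 10. Beside these counts stand 18.6% higher and 19.9% lower over all genes and 65.2% and 15.0% over the abundant genes, which also hold for the regulators and transporters that follow. For D_MgHCF against DOX the shares were 31.4% and 20.1%, and 15.5% and 67.3%. The gene that was lower was Gapdhs, the testis isoform (-0.31), named here after its value was seen. The steps between those of the set moved in the direction of Aldoa, Pgk1, Pkm and Ldha. Pgam1, phosphoglycerate mutase, rose 5.48-fold (2.44 ± 0.19, adjusted p = 1.20e-05), Eno1, enolase, 4.44-fold (2.14 ± 0.20), Tpi1, triose phosphate isomerase, 4.21-fold (2.07 ± 0.17) and Gpi1, glucose 6-phosphate isomerase, 3.58-fold (1.81 ± 0.15). Each of these 4 was called higher under all 5 scalings. Pfkm, the muscle-type phosphofructokinase, rose 2.46-fold (1.24 ± 0.17) but turned slightly negative (-0.07) under TPM, and Ldhb, the other lactate dehydrogenase subunit, rose 3.84-fold (1.69 ± 0.11) from 3.69 to 14.2 FPKM. In D_MgHCF against DOX, 4 of the 16 were higher and 7 lower, with Pgam1 (-2.58 ± 0.19), Eno1 (-2.52 ± 0.20) and Pfkm (-1.70 ± 0.17) the largest falls, all called lower under all 5 scalings (list counts 6 and 4 under TPM). Tpi1 (-1.38 ± 0.17) and Ldhb (-0.90 ± 0.11) were lower as deposited, but turned to 0.23 under quantile normalization (Tpi1) and 0.20 under TPM (Ldhb), not called. The largest rise was that of Pgam2 (1.19), named after its value was seen. Against Unt, D_MgHCF had 7 higher and none lower (8 and 4 under TPM), led by Pgam2, the muscle-type mutase, which rose 5.34-fold from 1.13 to 6.06 FPKM (1.73 ± 0.17, adjusted p = 6.88e-05), with Ldhb (0.79 ± 0.11) and Tpi1 (0.68 ± 0.17). D_DXZ against Unt gave 8 higher and none lower, and D_MgHCF against D_DXZ gave 3 higher and 8 lower. The shares called higher and lower in D_MgHCF against Unt were 24.3% and 15.7% of all genes, and 22.9% and 29.3% of the abundant genes. For D_DXZ against Unt they were 15.9% and 18.0%, and 59.4% and 15.3%. For D_MgHCF against D_DXZ they were 29.4% and 19.0%, and 15.9% and 63.1%.

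Of 8 regulators of glycolysis, 1 was higher and 5 lower in DOX against Unt, and all 8 were lower under TPM. Myc, a transcription factor that activates glycolytic genes, fell 12.4-fold, from 68.7 ± 5.16 to 5.55 ± 1.74 FPKM (-3.44 ± 0.34, adjusted p = 2.70e-05). Txnip, which limits glucose uptake and is itself glucose-responsive, fell 4.40-fold (-1.94 ± 0.30), and Tigar, a p53 target that lowers fructose 2,6-bisphosphate, fell 2.60-fold (-1.01 ± 0.25). In D_MgHCF against DOX 6 were higher and 1 lower, with Txnip (2.63 ± 0.30), Myc (2.20 ± 0.34) and Tigar (2.00 ± 0.25) leading, and these 3 kept direction and call under all 5 scalings. Myc stayed below Unt in D_MgHCF (-1.24 ± 0.34, adjusted p = 0.0157). Hif1a, the oxygen-regulated subunit of hypoxia-inducible factor, was the regulator called higher in DOX and lower in D_MgHCF against DOX, and is named after its values were seen. It had 18.2, 16.6 and 14.5 FPKM in Unt, 20.3, 24.3 and 25.7 in DOX, 19.9, 17.6 and 21.5 in D_DXZ and 10.7, 9.79 and 9.02 in D_MgHCF. Its log2 change was 0.48 ± 0.12 in DOX against Unt (adjusted p = 0.00783), which turned to -0.82 under TPM, and -1.17 ± 0.12 in D_MgHCF against DOX (adjusted p = 2.79e-05). The remaining lower regulators in DOX were Pfkfb3 (-0.78) and Pfkfb1 (-0.83).

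The other glucose and lactate transporters, 13 genes, gave 3 higher and 2 lower in DOX against Unt (1 and 4 under TPM). Slc16a1, the monocarboxylate transporter MCT1, which moves lactate, had 25.0, 24.7 and 25.5 FPKM in Unt, 71.1, 73.5 and 74.5 in DOX, 52.7, 77.4 and 76.7 in D_DXZ and 77.9, 91.7 and 43.9 in D_MgHCF. Its rise of 1.51 ± 0.24 in DOX (adjusted p = 0.000443) was positive under all 5 scalings and called under 2. Bsg, the chaperone of monocarboxylate transporters, rose by 1.95 ± 0.26 (adjusted p = 0.000165) and turned to -0.028 under quantile normalization. The third was Slc2a6 (0.85 ± 0.22, adjusted p = 0.0109), which was negative under TPM (-0.41), and the 2 that were lower, named after their values were seen, were Slc16a3 (-0.42) and Slc2a10 (-0.27). Slc2a4, the insulin-responsive transporter GLUT4, was nearly silent in the other groups and had 2.57, 2.54 and 2.83 FPKM in D_MgHCF, 9.77-fold the DOX mean of 0.271 (1.52 ± 0.09, adjusted p = 2.77e-06). In D_MgHCF against DOX the list had 6 higher and 1 lower, Bsg (-1.40 ± 0.26), which turned to 0.25 under quantile normalization (8 higher and none lower under TPM). The higher genes were led by Slc2a4, Slc2a8 (1.07) and Slc2a3 (0.87). In D_MgHCF against Unt 5 were higher and none lower, beside 24.3% and 15.7% of all genes. The rise of Slc2a4 was called under all 5 scalings in D_MgHCF against DOX and against Unt.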

How the data were processed

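Poly(A) RNA of 12 H9c2 libraries, 3 per group, was sequenced as paired-end reads. The authors deposited FPKM values per gene and library. The submitters' processing notes name HISAT2 2.0.5 and GRCm38 (mm10), and the counting program and annotation release are not given in the sources used here. Whole reads could be recovered from all values (100%, tolerance 0.1 reads) by undoing the length and a library-wide factor, with 16626514 to 19365119 reads per library, and that factor equalled a median-ratio factor. A count of 0 allows up to 3 reads (counting error only). No sample column was left unused.

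The 25044 of 54345 genes detected (FPKM above 0) in 3 or more libraries were tested on log2(FPKM + 1) in R 4.3.3 by limma 3.58.1, with trend, the 4 groups in 1 fit and no covariate, and Benjamini-Hochberg adjustment over all genes. Fold changes on this scale understate changes of low genes. Isoform ratios were compared with exact permutation tests (scipy 1.17.1). Alternatives were a pseudocount of 0.1, other filters, a replicate block, fits of 2 groups, TPM, quantile normalization, voom on recovered reads, other thresholds and each library left out. Summing copies and centring on the median were chosen after seeing the data. Copies were searched with BLAST 2.17.0 in GENCODE M21, which held 53620 of the table's gene IDs. The fit was tested on simulated data. Named genes were all members in each comparison and, from each other list, at most the 3 largest changes with adjusted p under 0.05 and at least 1 FPKM on average where they were higher, plus Eno1, Tpi1, Gpi1, Pgam1, Pfkm and Ldhb, and a gene over 5% of the summed FPKM where a scaling turned on it. The members and lists were chosen with earlier results of these data known.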

Additional observations from a re-analysis of the deposited data

How the results depend on the processing

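In DOX against Unt the member genes called higher fell from 7 to 4 under TPM, TPM without Gm23935 and quantile normalization, and those called lower rose from 2 to 4 under both TPM scalings. In D_DXZ against Unt 2 members were higher under quantile normalization, and 5 (TPM) or 4 (TPM without Gm23935) lower. In D_MgHCF against Unt 1 member was called higher (main count 0) with the filter at FPKM of at least 1, quantile normalization and unadjusted p, and 5 were lower (main count 3) under both TPM scalings, quantile normalization and unadjusted p, or 0 with a 2-fold minimum. Leaving out each library gave 0 to 1 higher and 2 to 5 lower members there, with 1 higher without DOX library 2 or D_MgHCF library 3 and 5 lower without D_MgHCF library 1. In D_DXZ against DOX unadjusted p called 1 member higher and 1 lower. In D_MgHCF against D_DXZ a 2-fold minimum left 1 member higher.

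The sign turned for Hk1 and Pfkp under TPM and TPM without Gm23935. Hk1 was -0.47 and -0.37 (DOX against Unt), -0.67 and -0.52 (D_DXZ against Unt), 0.16 and 0.079 (D_MgHCF against DOX) and 0.35 and 0.23 (D_MgHCF against D_DXZ). Pfkp was -0.67 and -0.58, -0.78 and -0.63, 0.21 and 0.13, and 0.31 and 0.19 in the same order. Among values that were not called, Aldoa_ENSMUSG00000114515 turned to 0.019 in DOX against Unt and -0.034 in D_DXZ against DOX (quantile normalization), where it ranged from -0.16 (without the second DOX library) to 0.15 with each library left out, Pkm to -0.045 (quantile normalization) and Gapdh to 0.38 (copies summed) in D_MgHCF against Unt. In D_DXZ against DOX Gapdh ranged from -2.30 to 0.79 with each library left out, and was above 0 without DOX library 1 or 3 or D_DXZ library 3, and the Pfkp to Pfkl ratio was 0.003 with all libraries and ranged from -0.14 to 0.10 with each left out. Hk1 ranged from -0.44 (without D_MgHCF library 3, called) to 0.028 (without D_MgHCF library 2) in D_MgHCF against Unt. The cause was not tested. Values that became called with a library of their own comparison left out included Gapdh in DOX against Unt (4.96) and D_MgHCF against DOX (-5.12) without DOX library 2, Gapdh in D_DXZ against Unt (4.10) and D_MgHCF against D_DXZ (-4.26) without D_DXZ library 3, and, in D_MgHCF against Unt, Pgk1 (-0.54) and Pfkp (-0.41) without D_MgHCF library 1. With the replicate block Hk1 became called (0.47) and Pfkp lost its call (0.35) in D_DXZ against Unt, and no other call changed. Most same-numbered libraries did not deviate together (r from -0.314 to 0.306, over 0.1 in 2 of 18 pairs), and the numbers were not taken as pairs. The 2 exceptions were DOX with D_DXZ, libraries 1 (0.306) and 3 (0.22). Of 36 comparisons of a library with another group, 18 correlated best with the own number among the 3. Whether the numbers mark a shared batch was not tested. Pfkp in D_DXZ against Unt also lost its call with no filter, voom, or without any Unt library, DOX library 2, D_DXZ library 2 or 3, or D_MgHCF library 2, and Hk1 in D_MgHCF against D_DXZ with no filter, in the fit of the 2 groups and without D_DXZ library 2 or 3 or D_MgHCF library 1 or 2. Slc2a1, Hk2, Pkm, Ldha, Aldoa and Pfkl kept their direction in DOX against Unt and in D_MgHCF against DOX under every setting tried. Pgk1 kept its direction too, but its rise in DOX was not called under quantile normalization.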

Other observations

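The pentose phosphate pathway, which branches from glucose 6-phosphate and makes NADPH and ribose, was counted in 7 genes. In DOX against Unt all 7 were higher, with a median log2 change of 1.71 against 0 over all genes tested and 0.93 over the genes with a mean FPKM of at least 10, to which 6 of the 7 belong. Of those abundant genes 65.2% were called higher, and of all genes 18.6%. Under TPM scaling 4 were higher and 1 lower. Pgd, the second NADPH-producing enzyme, rose 5.08-fold from 15.5 to 78.6 FPKM (2.27 ± 0.13 SE, limma adjusted p = 1.06e-05). Taldo1, transaldolase, rose 4.10-fold (2.01 ± 0.15) and G6pdx, glucose 6-phosphate dehydrogenase, 3.90-fold (1.94 ± 0.14). These 3 were called higher under all 5 scalings. In D_MgHCF against DOX all 7 were lower (3 under TPM, none higher), as were 20.1% of all genes and 67.3% of the abundant genes, while Pgd stayed above Unt in D_MgHCF (1.05 ± 0.13, adjusted p = 0.00025).

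Entry of pyruvate into mitochondria was counted in 12 genes. In DOX against Unt 8 were higher and 3 lower, a split that turned to 1 higher and 7 lower under TPM. The share called higher was 18.6% over all genes and 65.2% over the abundant genes. Only 4 of the 12 belong to the abundant genes, so neither share matches the mix of levels in this list. Pdk3, a kinase that inhibits pyruvate dehydrogenase, rose 3.78-fold (1.87 ± 0.12, adjusted p = 1.06e-05) and was called under all 5 scalings. The subunits of pyruvate dehydrogenase differed in D_MgHCF. Pdha1 had 35.0, 34.4 and 35.3 FPKM in Unt and 13.5, 10.2 and 10.3 in D_MgHCF (-1.55 ± 0.12, adjusted p = 2.36e-05), whereas Pdhb had 27.1, 28.0 and 28.7 in Unt and 88.7, 102 and 56.9 in D_MgHCF (1.49 ± 0.19, adjusted p = 0.000281). Both calls held under all 5 scalings.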
